A study of Arabidopsis thaliana with 6 samples.

Results

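The genes described here are the UDP-glycosyltransferases (UGT symbols) and cytochromes P450 (CYP symbols) of Arabidopsis thaliana, measured on Affymetrix ATH1 arrays in wild type and in an rli mutant. Members were the probe sets with 1 gene in the array annotation whose symbol starts with UGT or CYP and a number. The rule leaves out UGT74B1, CYP79F1, CYP83A1 and the anthocyanin gene AT4G14090. Only 1 of these, UGT74B1, had a probe set that matched and was taken out. The rule found 72 genes with 1 probe set each, among 13513 probe sets with 1 gene and 22810 on the array. Of these, 46 are UGTs and 22 have the symbol form of a P450. The other 4 are CYP71 and CYP59, which the reference gene table names as cyclophilins and not as P450s, the pseudogene-named CYP71B30P, and CYP718. They are given apart and counted in neither family. CYP71B30P and CYP718 were set apart by the form of their symbols only. The 22 P450s include CYP51G2 and CYP71B27, which are transcribed pseudogenes in the reference gene table. These members are the genes that the array's gene table names in this form, not the whole families. No gene listed for brassinosteroid, gibberellin, jasmonate, cutin, suberin and wax, carotenoid or pollen wall was measured under its listed symbol.

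The comparison was between 3 wild-type arrays and 3 arrays of a line labelled as an RLI T-DNA insertion mutant. RLI is the RNase L inhibitor, an ABCE-type ATPase of ribosome recycling, and the series title asks about its effect on RNA stability. RNA came from whole plants lifted from soil, with the source name Co-1 and 1 stock code for both groups. The labels give stage 3.20 for wild type and 1.14 for rli, with weeks as the unit, so genotype and labelled stage cannot be told apart in any value below. These numbers may be growth stage codes and not ages, which the labels do not settle. The labels do not say how many plants an array holds, whether the replicates were separate plants, or whether the line is 1 insertion event, and the p-values measure the spread between these samples only. The genotype was not checked against the RLI transcript. The leaf gene RCA, at a mean log2 intensity of 12.6 in wild type and 12.2 in rli, and the root gene PYK10, at 9.99 and 10.2, were both bright, while no listed flower or seed marker had a named probe set.

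UDP-glycosyltransferases attach a sugar from a nucleotide sugar to small molecules such as flavonoids, hormones and foreign compounds, which changes their solubility, storage and activity. Cytochromes P450 are haem enzymes that use oxygen and electrons from a reductase to oxidise such molecules, often in the step before a sugar is added. Both are large families in plants, with many members in tandem arrays of close copies. No sequences of these genes were used here.

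Values are MAS5 intensities, and each difference is the mean log2 value in rli less that in wild type, given with its standard error (SE) from limma, over 3 arrays a group. A probe set was tested where its mean log2 intensity over the 6 arrays was at least 4.63, an intensity of 24.7, and it was called where its limma adjusted p (Benjamini-Hochberg over 13648 probe sets) was below 0.05. Of the 46 UGTs 22 were tested, and of the 22 P450s 10, all of them in the CYP71B subfamily. Every statement on tested P450s is therefore one on CYP71B. In whole plants, fewer cells of a type and less RNA per cell cannot be told apart.

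Between rli and wild type, 4 members rose and 0 fell by the limma test. UGT78D2 and UGT88A1 rose among the 22 tested UGTs, and CYP71B24 and CYP71B26 among the 10 tested P450s. Over all probe sets tested, 6.8% were called, 4.27% higher and 2.53% lower in rli. The share called was 9.09% of the UGTs and 20% of the P450s, which rests on 2 genes in each family. At an unadjusted p below 0.05 there were 7 UGTs, 6 higher and 1 lower, and 5 P450s, 4 higher and 1 lower, where 21.1% of all probe sets tested had such a p.

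UGT78D2 (AT5G17050) encodes the flavonoid 3-O-glucosyltransferase, which adds glucose to flavonols and anthocyanidins. It read 84.1, 93.5 and 80.1 in wild type, in the order of replicates 1 to 3 as in all such readings, and 153, 185 and 171 in rli. All rli arrays lay above all wild-type arrays, and the spread within each group was small, with a log2 SD of 0.11 in wild type and 0.13 in rli. The rise was 0.98 ± 0.19 (SE, limma adjusted p = 0.016), or 1.97-fold. In the anthocyanin pathway, DFR, the dihydroflavonol reductase, stood 3.26 ± 0.24 higher (SE, limma adjusted p = 9.3e-05). The glycosyltransferase gene UF3GT stood 2.04 ± 0.26 higher (0.0021). Both were picked with earlier results of these data known, and the pathway was not examined as a whole. The call of UGT78D2 was lost after median centring of the arrays (limma adjusted p = 0.20) and when wild-type replicate 1 or an rli array was left out, with an adjusted p of at most 0.080 in these fits and a difference of at least 0.92. It held in 12 of 17 alternative settings.

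UGT88A1 (AT3G16520), for which no role is given here, read 288, 284 and 175 in wild type and 537, 627 and 473 in rli. The groups did not overlap, and wild-type replicate 3 was the lowest array. The rise was 1.16 ± 0.24 (SE, limma adjusted p = 0.020), or 2.23-fold, and 0.92 without wild-type replicate 3 (limma adjusted p = 0.0037). The call was lost after median centring (limma adjusted p = 0.25), without the intensity trend (0.053) and when any rli array was left out (at most 0.089), and it held in 12 of 17 alternative settings.

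CYP71B24 (AT3G26230) and CYP71B26 (AT3G26290) belong to the CYP71B subfamily, and no substrate is given for them here. CYP71B24 read 20.3, 22.2 and 57.2 in wild type and 99.5, 115 and 83.7 in rli. All rli arrays were above wild type, with wild-type replicate 3 well above the other two wild-type arrays, which lay below the filter level. The rise was 1.74 ± 0.39 (SE, limma adjusted p = 0.029), or 3.34-fold, and 2.22 without wild-type replicate 3 (limma adjusted p = 0.00018). Its call was lost without the intensity trend (limma adjusted p = 0.056) and when any of the other 5 arrays was left out (at most 0.13), and it held in 10 of the 16 alternative settings that tested it.

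CYP71B26 read 28.0, 34.3 and 50.8 in wild type and 93.9, 149 and 119 in rli. The lowest rli array stood clear of the highest wild-type array. The rise was 1.70 ± 0.29 (SE, limma adjusted p = 0.0080), or 3.25-fold. The call held in 16 of 17 alternative settings and was lost without rli replicate 2 (limma adjusted p = 0.052).

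**Figure D1:**
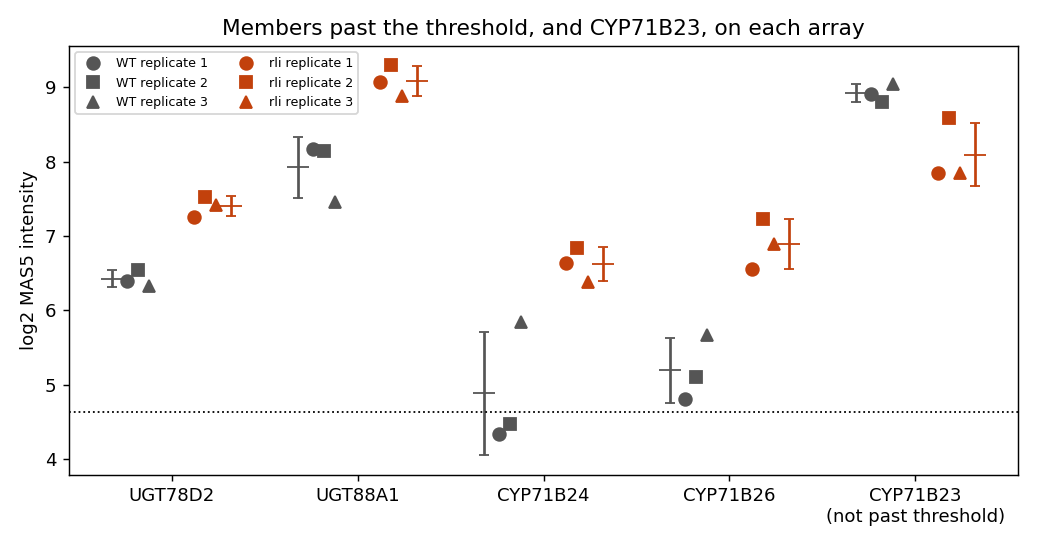
Log2 MAS5 intensity of the 4 called members and of CYP71B23 on each array, with wild type in grey, rli in orange, and the mean ± SD (n = 3) beside each group. The dotted line is the filter level of 4.63. UGT78D2, UGT88A1, CYP71B24 and CYP71B26 lie higher on every rli array than on any wild-type array, and CYP71B23 lower without passing the threshold.

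The flavonoid and phenylpropanoid genes, a list of UGTs and P450s, were the largest role group with tested members. None of the P450s in that list was measured under its listed symbol. Of 17 listed genes 9 were measured under their listed symbols and 6 tested, with 1 called higher, UGT78D2, 0 called lower and a median difference of 0.34. UF3GT, measured under another name and given above, is not in these counts and was called higher, by 2.04 (limma adjusted p = 0.0021). UGT78D1 (AT1G30530), the flavonol 3-O-rhamnosyltransferase, read 147, 106 and 90.0 in wild type and 161, 174 and 164 in rli. Its groups did not overlap either, but its difference of 0.57 ± 0.22 did not pass (limma adjusted p = 0.18). UGT78D3, a flavonol arabinosyltransferase that lies beside UGT78D2 with 1 gene between them, was dim on all arrays, at most 2.63 in wild type and 2.57 in rli, and was not tested.

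UGT72E1 and UGT72E2 glucosylate the lignin precursors coniferyl and sinapyl alcohol or their aldehydes. UGT72E1 stood at 0.48 ± 0.32 (limma adjusted p = 0.44) and UGT72E2 at 0.03 ± 0.59 (0.99). The difference of UGT72E1 was 0.21 with wild-type replicate 3 left out and 0.25 with rli replicate 2 left out. UGT72E2 read 16.0, 18.3 and 68.1 in wild type and 32.7, 23.8 and 27.5 in rli, so that the highest and the lowest values were both wild-type arrays. UGT84A3 and UGT84A4, which form glucose esters of hydroxycinnamic acids, stood at 0.21 ± 0.24 (limma adjusted p = 0.71) and 0.03 ± 0.52 (0.98). The 95% interval of UGT84A4 ran from 0.459-fold to 2.27-fold, a range that holds changes as large as those of the called UGTs.

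The hormone glycosyltransferases tested were 2 for cytokinin and 1 each for auxin, abscisic acid and salicylate, and 0 were called. Over all probe sets tested 6.8% were called, so a count of 0 among so few is a description. The cytokinin N-glucosyltransferases UGT76C1 and UGT76C2, which are adjacent genes, stood at 0.11 ± 0.33 (limma adjusted p = 0.90) and -0.66 ± 0.36 (0.34), with overlapping groups in both. UGT76C2 read 37.8, 52.4 and 68.9 in wild type and 41.2, 22.8 and 36.7 in rli, the lowest difference of the tested UGTs. UGT74D1, which glucosylates auxins, stood at 0.87 ± 0.38 (limma adjusted p = 0.22), but at 0.44 without wild-type replicate 3, where it read 27.2, against 73.3 and 60.7 for replicates 1 and 2. UGT71C5, which forms the glucose ester of abscisic acid, stood at 0.08 ± 0.33 (limma adjusted p = 0.92) and at -0.33 without that array. UGT71C3, an enzyme that glucosylates methyl salicylate, read 17.5, 23.4 and 15.3 in wild type and 29.5, 38.0 and 52.5 in rli. Its groups did not overlap, the mean in wild type was under the filter level, and its difference of 1.08 ± 0.45 did not pass (limma adjusted p = 0.21).

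UGT87A2, linked to flowering time, was the 1 UGT with an unadjusted p below 0.05 and a lower mean in rli. It read 402, 426 and 303 in wild type and 226, 338 and 225 in rli, with 1 rli array inside the wild-type range. Its difference was -0.53 ± 0.23 (SE, limma adjusted p = 0.23), and -0.68 without wild-type replicate 3, where it passed (limma adjusted p = 0.042). Without that array 15.3% of all probe sets tested were called, and UGT87A2 passed in 2 of 17 alternative settings in all. UGT80B1, a sterol glucosyltransferase, stood at 0.12 ± 0.27 (limma adjusted p = 0.85).

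Among the tested UGTs, the highest difference was not a called one. UGT71B1 stood at 1.72 ± 0.70 (limma adjusted p = 0.20), with readings of 53.6, 50.7 and 6.28 in wild type and 78.9, 99.8 and 77.7 in rli. Wild-type replicate 3 was far below the other arrays, and the difference was 0.70 without it (limma adjusted p = 0.058). Of the adjacent genes UGT85A2 and UGT85A5, the first stood at 0.65 ± 0.36 and the second at 0.79 ± 0.47, and UGT85A4, on the same chromosome but apart from them, at 0.73 ± 0.36, with limma adjusted p-values of 0.35, 0.38 and 0.29. Without wild-type replicate 3 these differences were 0.23 for UGT85A2, 0.61 for UGT85A5 and 0.30 for UGT85A4. The remaining tested UGTs were UGT72B3 at 0.74 ± 0.60, UGT71C4 at 0.43 ± 0.29, UGT76E11 at -0.08 ± 0.46 and UGT73B1 at -0.32 ± 0.46, none past the threshold. Without wild-type replicate 3, UGT72B3 stood at 1.27, UGT71C4 at 0.13, UGT76E11 at -0.27 and UGT73B1 at -0.16.

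**Figure D2:**
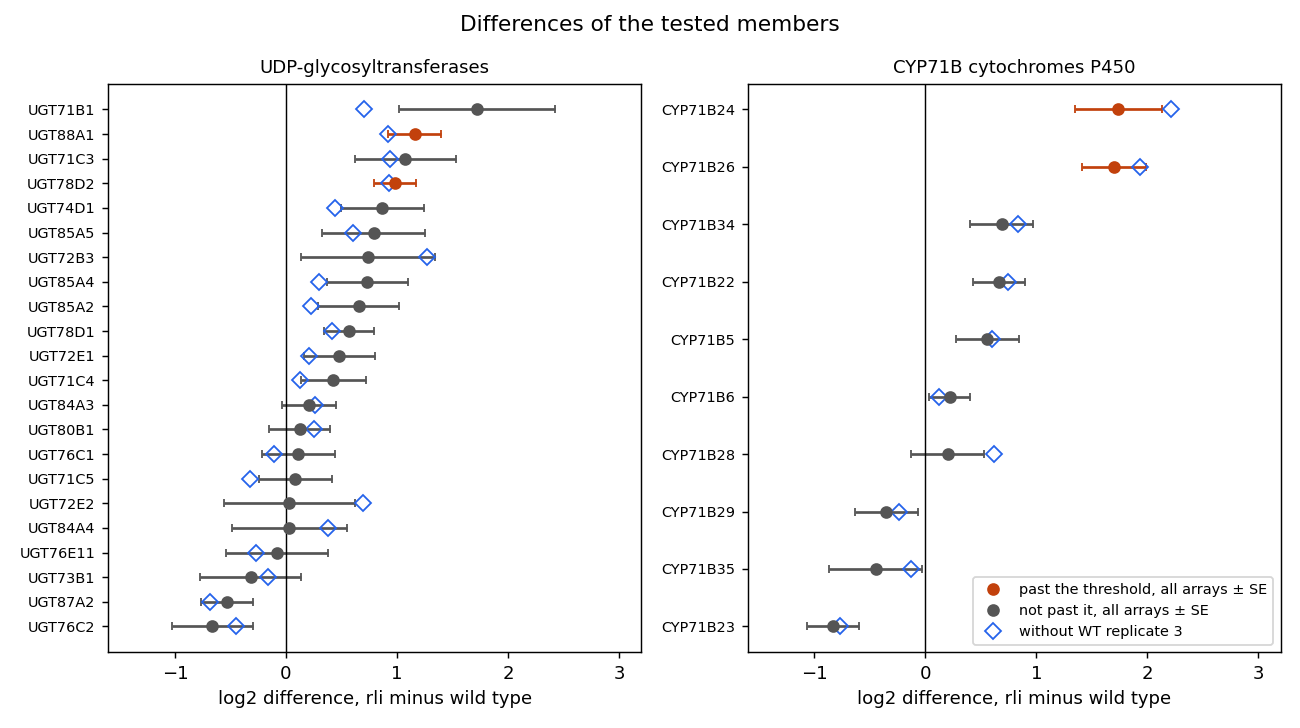
Log2 difference (rli minus wild type) of the 22 tested UGTs (left) and the 10 tested CYP71B genes (right), as points with the SE from limma, over 3 arrays a group, orange where past the threshold. Open diamonds give the difference without wild-type replicate 3. UGT71B1 moves from 1.72 to 0.70 without that array, and CYP71B24 from 1.74 to 2.22.

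Most of the measured CYP71B genes stand in 1 tandem run on chromosome 3. Of the 18 CYP71B members, 11 lie there with at most 5 protein-coding genes between neighbours, and 6 of the 11 were tested, CYP71B22, CYP71B23, CYP71B24, CYP71B26, CYP71B34 and CYP71B35 in that order. Both called P450s are in this run, which holds 6 of the 10 tested P450s, so this is a description. CYP71B22 and CYP71B23 are next to each other, and 1 gene separates CYP71B23 from CYP71B24.

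The difference of CYP71B23 (AT3G26210) had the opposite sign to that of its called neighbour. It read 481, 447 and 529 in wild type and 229, 383 and 230 in rli. All rli arrays were below all wild-type arrays, with rli replicate 2 nearest to them. The difference was -0.83 ± 0.24 (SE, limma adjusted p = 0.069). It passed without wild-type replicate 3 (-0.77, limma adjusted p = 0.039), where 15.3% of all probe sets tested were called, and without rli replicate 2 (-1.08, 0.032). In all it passed in 4 of 17 alternative settings, and not after median centring (limma adjusted p = 0.29) or without the intensity trend (0.13). CYP71B22 read 139, 128 and 157 in wild type and 174, 299 and 213 in rli, without overlap, and stood at 0.66 ± 0.24 (limma adjusted p = 0.14). It passed without wild-type replicate 3 (0.74, limma adjusted p = 0.046), and in 2 of 17 alternative settings in all.

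CYP71B34, beside CYP71B26, read 33.5, 54.9 and 58.1 in wild type and 83.7, 85.7 and 62.2 in rli, for a difference of 0.69 ± 0.29 (limma adjusted p = 0.20). The groups came close without overlapping. CYP71B35, the next gene, stood at -0.44 ± 0.42 (limma adjusted p = 0.62), its 3 rli arrays between 24.7 and 27.8 and its wild-type arrays between 25.6 and 55.0. The other 5 members of the run were below the filter level in their mean and scattered between arrays, so their order says nothing about the run.

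**Figure D3:**
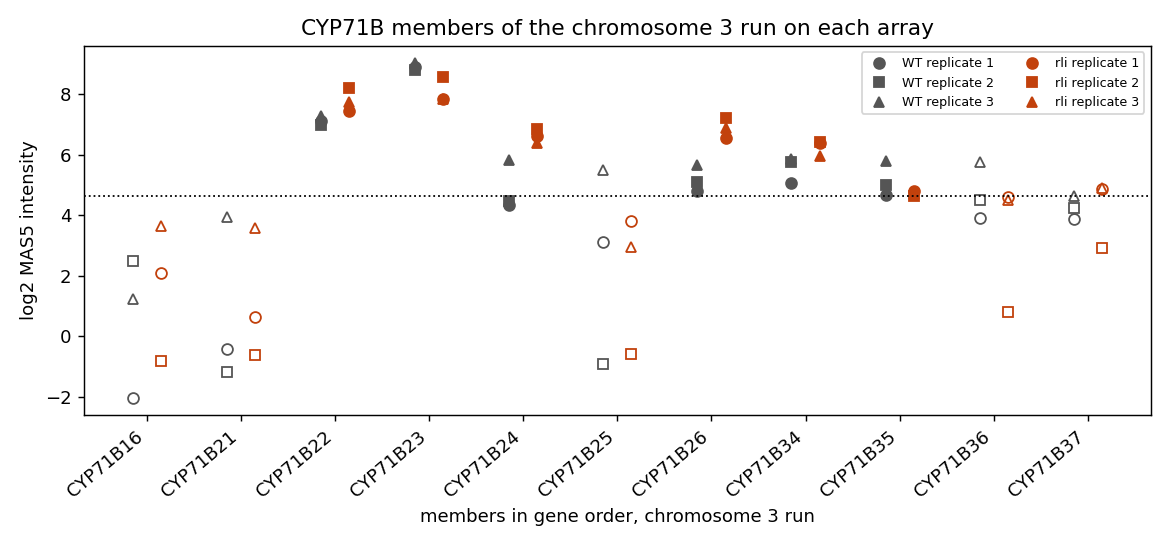
Log2 MAS5 intensity on each array of the 11 CYP71B members of the chromosome 3 run, in gene order, evenly spaced, with wild type in grey and rli in orange. Filled symbols are tested members, open symbols members not tested, and the dotted line is the filter level of 4.63. CYP71B24 and CYP71B26 are higher in rli, and CYP71B23, between CYP71B22 and CYP71B24, lies lower. Levels are not compared between probe sets.

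Outside that run, 4 CYP71B genes were tested and 0 called, where 6.8% of all probe sets tested were called. With so few genes this does not set the run apart. CYP71B5 stood at 0.56 ± 0.28 (limma adjusted p = 0.30) and CYP71B6, which acts on indolic compounds, at 0.22 ± 0.19 (0.57). The adjacent genes CYP71B28 and CYP71B29 stood at 0.20 ± 0.33 and -0.35 ± 0.28 (limma adjusted p = 0.79 and 0.54). CYP71B28 read 213 on wild-type replicate 3, above every rli array, against 85.0 and 93.8 for wild-type replicates 1 and 2, and its difference was 0.62 without that array (limma adjusted p = 0.052).

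Set side by side, the tested UGTs had a median difference of 0.45 and a range of -0.66 to 1.72, with 18 of 22 higher in the mean of rli. The tested P450s had a median of 0.39 and a range of -0.83 to 1.74, with 7 of 10 higher. Over all probe sets tested the median was 0.04, with 53.3% higher. All 3 rli arrays lay above all wild-type arrays for 5 of 22 UGTs and 4 of 10 P450s, and for 15.2% of all probe sets tested, and below them for 0 UGTs and 1 P450, against 12.9%. These counts are a description, since 3 of the tested UGTs averaged less than the filter level in wild type and passed the filter through rli alone. Over all measured members the median was 0.45 for the 46 UGTs and 0.21 for the 22 P450s, beside 0.09 over all 22746 probe sets other than controls.

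Wild-type replicate 3 sat at different places among the arrays in the 2 families. That array stood apart over the whole set of probe sets, with correlations of 0.75 to 0.80 with the other arrays, where other pairs reached 0.92. It was the lowest array for 13 of the 22 tested UGTs, or 59.1%, and for 31.5% of all probe sets tested, and their median deviation there was -0.59. For the P450s it was the lowest array for 1 of 10 and the highest for 4, where it was the highest for 26.2% of all probe sets tested. The P450 median deviation there was 0.02, while wild-type replicates 1 and 2 stood at -0.30 and -0.29. Among members not called, leaving it out also moved UGT72E2 to 0.69, UGT84A4 to 0.38, UGT80B1 to 0.25, UGT76C1 to -0.11, CYP71B6 to 0.12 and CYP71B35 to -0.13. Without it the median difference of the UGTs was 0.28 and that of the P450s 0.61, against 0.01 over all probe sets tested. The counts called were then 3 UGTs, 2 higher and 1 lower, and 4 P450s, 3 higher and 1 lower, where 15.3% of all probe sets tested were called. Its part in the differences from the other arrays is given by these values, and the difference between the families was not tested.

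**Figure D4:**
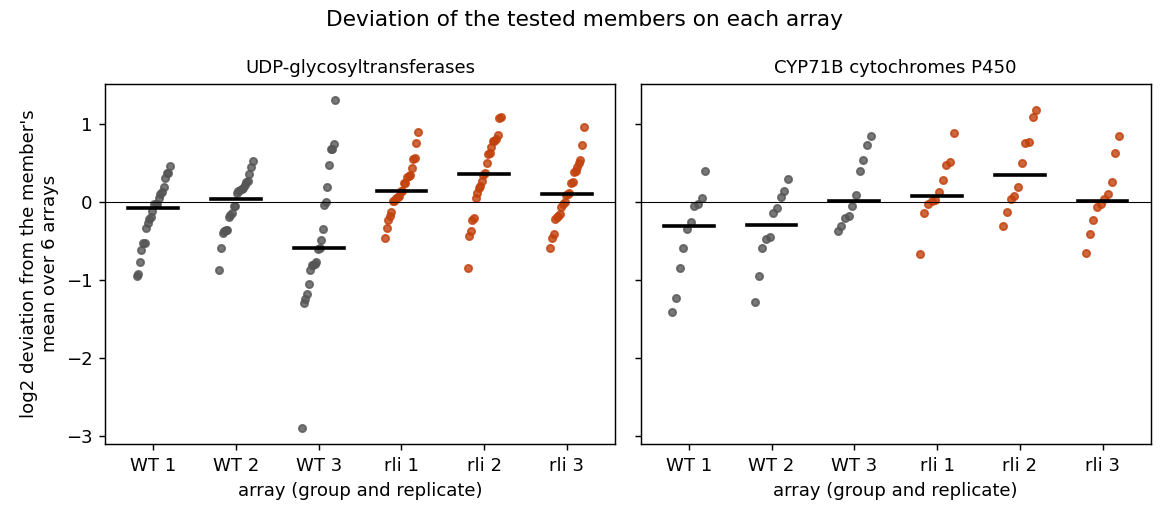
Log2 deviation of each tested member from its own mean over the 6 arrays, by array, for the 22 UGTs (left) and the 10 CYP71B genes (right), with black bars at the medians. On wild-type replicate 3 the UGT median is -0.59 and the CYP71B median 0.02. On rli replicate 2 both medians are high, 0.36 and 0.35.

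Rli replicate 2 was the highest array for 9 of the 22 UGTs and 6 of the 10 P450s, and for 16.5% of all probe sets tested. Without it the family medians were 0.31 and 0.27, with 0 UGTs and 1 P450 called, the latter CYP71B23, lower in rli. The share called over all probe sets tested was then 3.65%, against 6.8% with all arrays.

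The members that were not tested number 24 UGTs and 12 P450s, and 22 and 10 of these lay below the filter level in both groups. Their differences were split evenly, with 12 UGTs higher and 12 lower in the mean of rli, and 6 P450s each way. With no filter, where 3.33% of all probe sets were called, 0 of them were called by limma. An unadjusted p below 0.05 was seen for 3 UGTs and 0 P450s. The share of all probe sets with such a p was not counted in that fit, so these counts are values only. The largest differences were those of UGT71B5 and UGT84B1. UGT71B5 read 0.908, 6.21 and 3.01 in wild type and 27.6, 27.1 and 16.5 in rli, a mean log2 of 1.36 and 4.53, with groups that did not overlap (limma adjusted p = 0.18 with no filter). UGT84B1, which forms the glucose ester of the auxin indole-3-acetic acid, read 0.563, 0.534 and 2.52 in wild type and 11.0, 3.22 and 13.0 in rli (limma adjusted p = 0.35 with no filter).

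At the extremes of their subfamilies, UGT76E12, UGT73C1 and UGT73B5 stood 2.69, 1.84 and 0.56 higher in rli and UGT85A7 0.80 higher. UGT76E2 and UGT72E3 stood at -1.20 and -1.17, UGT73C7 at -0.26, UGT84A1 at -0.05, and UGT71C2 and UGT85A3 at -0.01 each. UGT71B6, an abscisic acid glucosyltransferase, stood at 0.98 and CYP71B36 at -1.43. All of these were too dim to be tested, and these are values only. All 3 rli arrays were above wild type for 4 untested UGTs and below it for 1, UGT74F1, a salicylic acid glucosyltransferase at -1.91, where 5.5% and 2.89% of all untested probe sets were so.

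The untested P450s outside CYP71B each belong to a subfamily with 1 measured member. CYP84A4, of arabidopyrone synthesis, stood at 0.05, CYP78A9, linked to the growth of fruits and seeds, at 0.97, and CYP79A2, which forms the aldoxime of phenylalanine, at 1.51. CYP51G2, a transcribed pseudogene in the reference gene table, stood at -1.48. Their groups overlapped in each case.

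Of the 4 members counted in neither family, 1 was tested. CYP71, a cyclophilin that binds chromatin, read 38.3, 42.2 and 64.9 in wild type and 92.4, 91.9 and 64.3 in rli. Its groups overlapped through replicate 3 of each, and its difference was 0.79 ± 0.28 (limma adjusted p = 0.14), or 1.02 without wild-type replicate 3, where it passed (0.018). In all it passed in 2 of 17 alternative settings. CYP59, CYP718 and CYP71B30P were dim and not tested, at -1.20, -0.26 and 0.87.

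Partner genes of the families were little represented. None of the 8 listed P450 reductase and cytochrome b5 loci or of the 12 loci of UDP-glucose supply had a probe set with a single named gene, so neither supply could be set beside the members. Of 14 glutathione transferases, which act next to UGTs and P450s in the removal of foreign compounds, 5 were tested and 2 fell, with a median of -0.31, where 2.53% of all probe sets tested were called lower and their median was 0.04. With 5 genes this is a description. GSTU20 fell by 1.07 ± 0.19 (SE, limma adjusted p = 0.0093) and GSTU27 by 0.71 ± 0.18 (0.045), and none rose. GSTU20 was past the threshold in 15 of 17 alternative settings and GSTU27 in 10 of 17. Of the 17 listed P450 and UGT loci under other names, 1 had such a probe set, UF3GT, given above.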

How the data were processed

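The deposited intensity of each probe set is on a linear scale. Per the submitters' processing notes, MAS5 and GCOS were used; versions are not given in the sources used here. The mean intensity without the lowest and highest 2% was the same on all arrays (100.01), so the deposited values were taken to log2 with no further scaling. The median intensities were not alike. They were 35.8, 36.6 and 53.0 in wild type and 45.8, 38.2 and 46.4 in rli, for replicates 1 to 3. Arrays have no read depth, and their number limits the precision. Groups and replicate numbers came from the sample titles. Genes came from the array's gene table, and gene order and locus tags from RefSeq (TAIR10.1), which matched all 72 members; coordinates were not used.

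Neither the 64 control probe sets nor those below the 40th percentile of mean log2 intensity were tested. The two-sided test was that of limma (version 3.58.1; R 4.3.3), with lmFit and an eBayes intensity trend. To check the code, a simulated comparison of rli with wild type planted changes of 1 size at a time in 200 of 13648 probe sets. The share recovered was 0% at a log2 change of 1, 68% at 2 and 86% at 3. False calls numbered 0, 7 and 9. The data had 928 probe sets called, more than the 200 planted, so these shares do not describe recovery in the data. UGT78D2, for example, was called at 0.98. A member that was not called is still not shown to be unchanged. Figures used matplotlib 3.10.9.

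Members, role lists and tests were chosen with earlier results of these data known. Named were members past the threshold, the 5 largest differences per family that were not, and role lists with 2 tested members. Subfamily extremes and the 2 largest dim differences were named too. Other tested members, and the 4 counted in neither family, were named after their values were seen.

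Alternatives were arrays normalized by quantiles or centred on their medians, and no filter or one at the 20th or 60th percentile. Others were a pseudocount (2.45), a floor (9.34), no trend, robust variance, weights for arrays and a block for replicate number. Each array was left out in turn, and so were probe sets flagged as ones that may cross-hybridise, of which there were 0. No sequences were compared, so signal shared between close copies was not assessed.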

Additional observations from a re-analysis of the deposited data

How the results depend on the processing

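Against 2 UGTs and 2 P450s called, the filter at the 60th percentile, which left out some members, gave 1 P450, no intensity trend 1 of each, median centring 0 UGTs, and array weights 5 P450s. Each array left out gave 0 to 3 UGTs and 1 to 4 P450s. The P450 median of 0.39 was 0.13 with the filter at the 20th percentile, 0.56 at the 60th and 0.21 with none, each over other members, and 0.27 to 0.61 with each array left out. The UGT median of 0.45 was 0.28 to 0.53 with each array left out. The array-wide count of 928 was 332 with median centring, 593 with no intensity trend, 3181 with array weights and 389 to 2085 with each array left out. The causes were not tested; leaving out an array also lowers the degrees of freedom. With the replicate number as a block, 2 UGTs, 3 P450s (CYP71B23 among them, limma adjusted p = 0.047) and 1300 probe sets were called; same-numbered samples correlated at -0.093, 0.33 and 0.32 in their deviations, which does not show a pairing.

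None of the 4 calls changed sign. Of 33 tested members, 7 that were not called did so, with reversed values between -0.44 and 0.10. UGT72E2 was -0.30 after quantile normalization and -0.043 after median centring, and UGT84A4 -0.12 and -0.044. Without wild-type replicate 1, UGT72E2 was -0.35, UGT84A4 -0.44, CYP71B28 -0.041 and UGT76E11 0.056. Without wild-type replicate 2 UGT72E2 was -0.25, and without wild-type replicate 3 UGT71C5 was -0.33 and UGT76C1 -0.11; array weights gave -0.31 and -0.13. The far ends with an array left out were 0.62 for CYP71B28, 0.34 for UGT71C5, 0.69 for UGT72E2, -0.27 for UGT76E11 and 0.38 for UGT84A4. Without rli replicate 1 UGT72E2 was -0.086 and UGT84A4 -0.24, and without rli replicate 3 UGT76E11 was 0.10 and UGT80B1 -0.12.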
